A study of Mus musculus with 2 samples.

Results

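The genes that make NAD, convert tryptophan to NAD through kynurenine, or consume NAD as PARPs, sirtuins and NAD glycohydrolases were followed in sorted small peritoneal macrophages. The 39 genes were taken by name from a list, and all 39 were found among the 55487 gene IDs of the deposited count table. Of these, 35 had 50 or more counts in the higher of the libraries and were read as ratios. The other 4, Nmnat2, Ido2, Nnmt and Sarm1, are given by their counts.

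Each group was a single library of pooled cells of male SWISS mice (outbred) aged 5 weeks. The LPS+LCC-12 library held 66967 cells from 8 mice that were given 20 mg/kg lipopolysaccharide (LPS, Escherichia coli O55:B5) into the peritoneum and then 0.3 mg/kg LCC-12 by the same route 6 h later. The LPS library held 102283 cells from 7 mice given LPS without LCC-12. Both groups received 30 mL/kg saline under the skin at 6 h and were killed 22 h after LPS, and no mice without LPS were analysed here. LCC-12 is a small molecule known to bind mitochondrial copper, where it interferes with copper-catalysed oxidation of NADH to NAD. Because neither group had a replicate library, no test, standard error or p-value is given. The ratios compare these libraries only, and their intervals cover counting error alone.

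NAD is built in macrophages from nicotinamide by salvage, from nicotinic acid, and from tryptophan through the kynurenine pathway. It carries electrons in metabolism and is also split by enzymes that use it as a substrate: sirtuins remove acyl groups from proteins, PARPs attach ADP-ribose to proteins, and CD38 and its relatives release nicotinamide. Many PARPs that attach single ADP-ribose units are known as interferon-induced antiviral genes, and IDO1 and NAMPT are known to be induced by inflammatory signals.

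Promoters of 4 PARP genes are shown first as examples of windows that hold an interferon or an aryl hydrocarbon receptor motif. They were picked among genes with lower counts in the LPS+LCC-12 library, and the same motifs were searched in every matched window. The windows run from 250 bases before to 50 bases after the gene start (RefSeq, GRCm38.p6), written 5′ to 3′ on the gene's strand. Capitals mark the interferon-stimulated response element GAAANNGAAA in the first pair and the aryl hydrocarbon receptor core GCGTG in the second pair, found on either strand.
Parp4 (chr14:56575369-56575668, plus strand): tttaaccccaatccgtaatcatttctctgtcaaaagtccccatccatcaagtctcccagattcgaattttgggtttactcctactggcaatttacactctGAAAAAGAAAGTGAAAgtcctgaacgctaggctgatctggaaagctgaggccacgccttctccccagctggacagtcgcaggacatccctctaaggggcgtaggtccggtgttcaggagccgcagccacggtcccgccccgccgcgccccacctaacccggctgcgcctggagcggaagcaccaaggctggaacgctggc
Parp11 (chr6:127446590-127446889, plus strand): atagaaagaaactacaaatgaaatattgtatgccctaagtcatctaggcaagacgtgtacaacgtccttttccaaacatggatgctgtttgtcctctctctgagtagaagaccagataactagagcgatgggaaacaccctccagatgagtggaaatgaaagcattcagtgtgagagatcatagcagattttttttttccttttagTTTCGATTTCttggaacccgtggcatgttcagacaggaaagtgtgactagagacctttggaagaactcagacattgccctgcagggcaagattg
Parp12 (chr6:39118300-39118599, minus strand): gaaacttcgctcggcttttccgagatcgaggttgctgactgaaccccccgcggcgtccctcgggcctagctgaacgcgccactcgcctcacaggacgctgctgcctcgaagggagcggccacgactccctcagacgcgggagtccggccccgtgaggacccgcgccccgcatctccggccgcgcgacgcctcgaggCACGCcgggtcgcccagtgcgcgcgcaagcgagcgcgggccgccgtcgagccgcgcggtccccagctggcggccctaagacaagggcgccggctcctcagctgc
Tiparp (chr3:65528197-65528496, plus strand): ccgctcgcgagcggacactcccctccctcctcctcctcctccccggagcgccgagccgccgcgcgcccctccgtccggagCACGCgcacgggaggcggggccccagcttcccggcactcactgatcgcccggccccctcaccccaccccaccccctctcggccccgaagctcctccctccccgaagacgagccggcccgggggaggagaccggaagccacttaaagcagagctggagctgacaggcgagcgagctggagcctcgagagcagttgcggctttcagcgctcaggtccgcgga

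A promoter was matched by symbol for 28 of the 39 genes, as 33 windows. Naprt, Ido1, Ido2, Kynu, Nadk2, Nnt, Nnmt, Bst1, Parp9, Parp10 and Parp14 were not matched, so no motif was searched for them. The interferon element occurred in 2 of these windows, those of Parp4 and Parp11, and in 3.44% of all 32851 promoter windows. Parp4 held overlapping copies that begin 150 and 144 bases before the gene start, and Parp11 held a copy on the opposite strand that begins 44 bases before it. Parp11 has another window at a second gene start, without the interferon element. The aryl hydrocarbon receptor core occurred in 18 of the 33 windows and in 32.4% of all windows. Besides Parp12 and Tiparp, it was present for Parp4, Nampt, Nmrk1, Nadk and Parp11, whose intervals given below lay wholly below 0. Nadk and Parp11 held it only in the window of their second gene start. The core was also present for Parp1, Parp2, Parp3, Sirt1, Sirt2, Sirt4 and Haao, whose ratios given below were close to 0 or above it. The remaining genes with it were Nmnat3, Parp8, Sirt5 and Sarm1. Another motif, the STAT element TTCNNNGAA searched on both strands, was present in 3 of the 33 windows and in 8.30% of all windows. In the Parp11 window it overlaps the interferon element. A match of letters describes the window only.

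The libraries held 47721888 counts for LPS+LCC-12 and 50618409 for LPS. Macrophage genes such as Lyz2, Adgre1 and Csf1r were abundant in both, and none of 11 general macrophage markers differed 2-fold. Markers of large peritoneal macrophages were also present. With LPS+LCC-12, 12 of these 18 were at least 2-fold higher, as were 11 of 14 genes that mark small peritoneal or monocyte-derived ones. Neutrophil markers summed to 3549 CPM (counts per 1000000 of TMM-scaled library size) in the LPS+LCC-12 library and 9362 CPM in the LPS library. All 13 neutrophil markers with enough counts had ratios below 0, and 9 were at least 2-fold lower. The 2 with too few counts went the other way. Elane, a marker of neutrophil precursors, had 3 counts with LPS+LCC-12 and 0 with LPS, and Mpo had 9 and 2. Mast cell markers summed to 67.8 and 213 CPM, mesothelial markers to 1.36 and 7.81 CPM and fibroblast markers to 3.68 and 22.2 CPM in the LPS+LCC-12 and LPS libraries. Their part in the results below was not tested. In such bulk samples, fewer cells of a type and less RNA per cell cannot be told apart.

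Seen as a set, the genes differed little in size between the libraries, as most were within 2-fold. Of the 35 genes read, only Ido1 and Parp10 (2 genes) lay past 2-fold in the lower direction with LPS+LCC-12, against a background of 6.65% of all 13482 genes with 50 or more counts. None was at least 2-fold higher, where 4.01% of all genes were. These shares are near the background, and the 2-fold count is therefore not a result about the set. Their median log2 ratio of LPS+LCC-12 over LPS was -0.26, against 0.02 over all genes read. Ratios lay below 0 for 23 of the 35 genes, where 47.6% of all genes did. At a smaller limit of 1.5-fold, 8 were lower and 0 higher, where 13.3% and 9.67% of all genes were. Without the 7 PARPs grouped below as mono-ADP-ribosylating, the median of the other 28 genes was -0.13, with 16 below 0.

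The 95% counting interval lay wholly below 0 for 17 genes, wholly above 0 for 5, and included 0 for 13. Over all genes read, 32.9% of intervals lay wholly below 0 and 36.5% wholly above 0. The genes were about as deeply counted as the rest, with a median of 841 counts in the higher library against 926 for all genes read. Among the 17 genes with 1000 or more counts, 12 had an interval wholly below 0 and 3 wholly above, and their log2 ratios ran from -1.03 to 0.26. Of 6536 genes in all at that depth, 2473 had an interval wholly below 0 and 2801 wholly above.

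**Figure D1:**
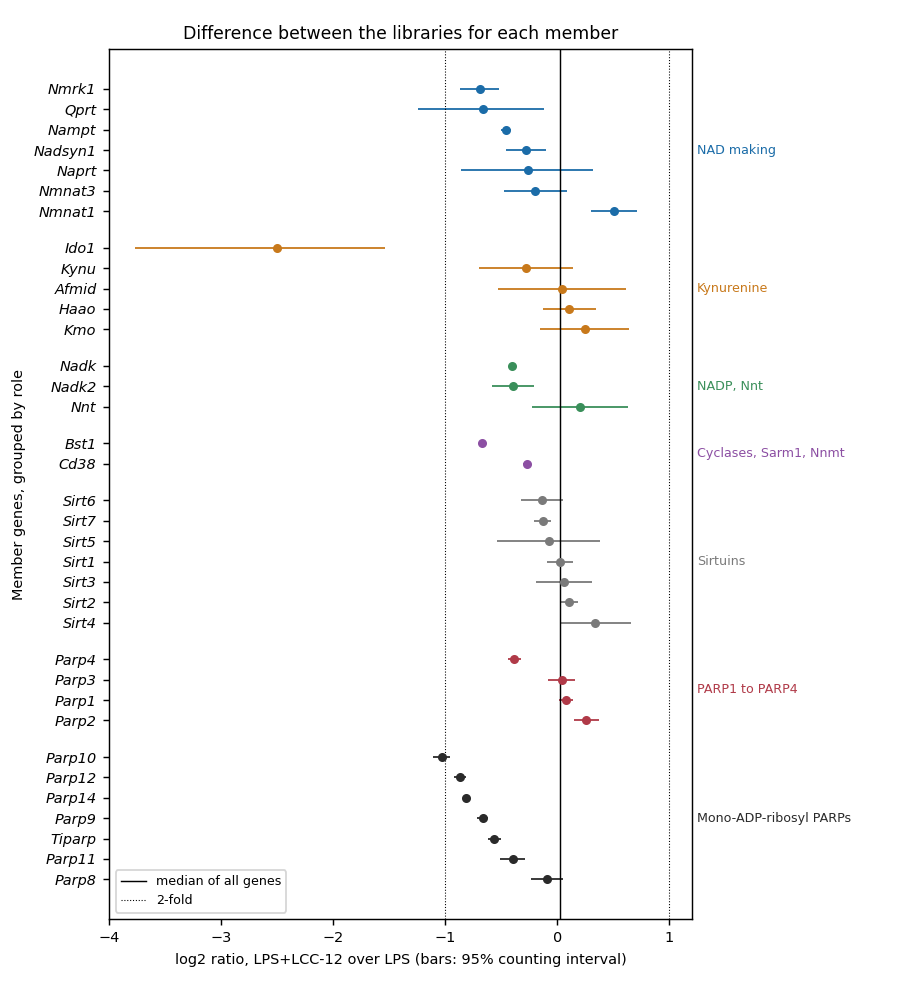
Log2 ratio of LPS+LCC-12 over LPS for the 35 genes with 50 or more counts, grouped by role, with 95% counting intervals as bars; the solid line is the median of all genes (0.02) and dotted lines mark 2-fold. All 7 PARPs grouped as mono-ADP-ribosylating lie below 0, Ido1 stands lowest at -2.50 with a wide interval, and sirtuins lie between -0.13 and 0.34.

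The 7 PARPs grouped here as attaching single ADP-ribose units were lower in the LPS+LCC-12 library, all with ratios below 0 and a median of -0.67. Of these, 6 had intervals wholly below 0, 4 were at least 1.5-fold lower, and Parp8 was the exception within counting error. Over all genes read, 47.6% had ratios below 0, 32.9% had intervals wholly below 0 and 13.3% were at least 1.5-fold lower. Among all genes with 1000 or more counts, where intervals are narrower, 37.8% had intervals wholly below 0. The pattern holds for the group as drawn. It leaves out Parp3 and Parp4, given with the repair PARPs, and Parp6, which is outside the set. Parp6 had a log2 ratio of 0.24 (0.13 to 0.36). Parp10, a cytosolic mono-ADP-ribosyltransferase, had 2201 counts (45.5 CPM) in the LPS+LCC-12 library and 4643 counts (93.0 CPM) in the LPS library. It was 2.04-fold lower (log2 ratio -1.03, interval -1.10 to -0.96), so counting error alone spans both sides of the 2-fold limit, and scaling by total counts, or by totals without the most abundant genes, put it within 2-fold (log2 ratio -0.99 and -0.97). Its annotated exons share 205 bases with Plec, a far more abundant gene on the same strand with 113142 and 117669 counts.

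Parp12, a zinc-finger PARP with antiviral activity, had 4175 counts in the LPS+LCC-12 library against 7874 in the LPS library. Its log2 ratio was -0.87 (interval -0.92 to -0.81), a 1.83-fold lower level. Parp14, a macrodomain PARP known for its role in STAT6 signalling, had 16564 and 29996 counts in the LPS+LCC-12 and LPS libraries and was 1.75-fold lower (log2 ratio -0.81, -0.84 to -0.78). Both genes were among the most abundant of the set, and their intervals stayed short of 2-fold.

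Parp9, a macrodomain PARP that acts with the ubiquitin ligase DTX3L and has little activity alone, had 4655 counts with LPS+LCC-12 against 7628 with LPS. It was 1.59-fold lower (log2 ratio -0.67, -0.72 to -0.61). Tiparp, also called PARP7, a repressor of the aryl hydrocarbon receptor and itself its target, had 3816 and 5818 counts in the LPS+LCC-12 and LPS libraries (log2 ratio -0.56, -0.62 to -0.50). Parp11 had 1157 and 1575 counts in those libraries (log2 ratio -0.40, -0.51 to -0.29). Parp8, a less studied member, had 767 and 841 counts (log2 ratio -0.09, -0.23 to 0.06), and so did not differ beyond counting error. The group thus ran in order from Parp10 through Parp12, Parp14, Parp9, Tiparp and Parp11 to Parp8. Intervals of neighbouring genes overlapped for Parp12 with Parp14, for Parp9 with Tiparp and for Tiparp with Parp11.

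PARPs of DNA repair were near even between the libraries. Parp1, the main poly-ADP-ribosylating enzyme at DNA breaks, had 4385 counts in the LPS+LCC-12 library and 4280 in the LPS library (log2 ratio 0.08, 0.02 to 0.14). Parp2, its close relative, had 1475 and 1271 counts (log2 ratio 0.26, 0.15 to 0.37). Parp3, which acts in break repair, had 1121 and 1126 counts (log2 ratio 0.04, -0.08 to 0.16). Parp4, the PARP of vault particles, was the lower one of these, with 4479 counts against 6033 (log2 ratio -0.38, -0.44 to -0.33). Whether the mono-ADP-ribosylating PARPs differ from the repair PARPs beyond variation between mice could not be tested with these libraries.

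Summed per kilobase of exon, the 11 PARP genes came to 158 CPM per kb in the LPS+LCC-12 library and 238 CPM per kb in the LPS library. Parp14 was the largest part, with 23.3% of the LPS+LCC-12 sum and 27.1% of the LPS sum. Parp1 made up 10.8% of the LPS+LCC-12 sum and 6.80% of the LPS sum. On this per-length scale the level of Parp14 was 2.15 times that of Parp1 in the LPS+LCC-12 library and 3.99 times in the LPS library. The sirtuin sum, by contrast, was 34.0 CPM per kb in both libraries.

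**Figure D2:**
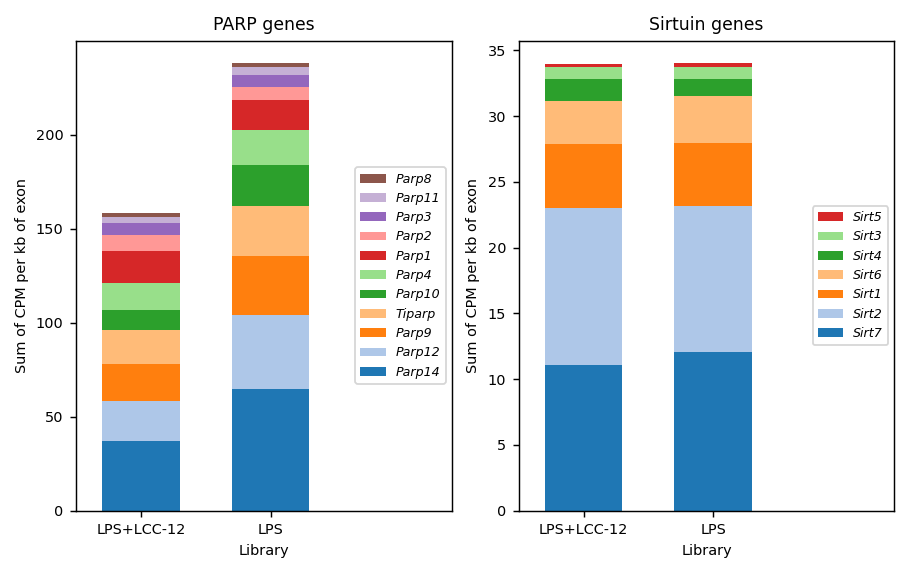
Stacked levels (CPM per kb of exon) of the 11 PARP genes, left, and 7 sirtuin genes, right, in the LPS+LCC-12 and LPS libraries, 1 bar per library. The PARP bars reach 158 and 238, with Parp14 the largest segment of each, and the sirtuin bars both reach 34.0.

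Parp14, Dtx3l and Parp9 lie next to each other on chromosome 16 (GRCm38), at 35832874 to 35871544, 35926511 to 35939151 and 35938470 to 35972605. Dtx3l, the ligase partner of Parp9, had 6610 counts in the LPS+LCC-12 library and 12119 in the LPS library, a 1.78-fold lower level (log2 ratio -0.83, -0.87 to -0.79). Dtx3l and Parp9 lie on opposite strands and share 458 exonic bases, so without a stated use of strand their reads cannot be fully told apart. The nearest genes on either side were closer to even. Hspbap1 had 750 and 893 counts (log2 ratio -0.21, -0.35 to -0.06) in the LPS+LCC-12 and LPS libraries, and Kpna1, a nuclear import receptor, had 3457 and 3298 counts (log2 ratio 0.11, 0.04 to 0.18). Farther out, Pdia5 had 248 and 133 counts and a log2 ratio of 0.94 (0.64 to 1.26). These neighbours were chosen after the values of the PARP genes were seen.

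**Figure D3:**
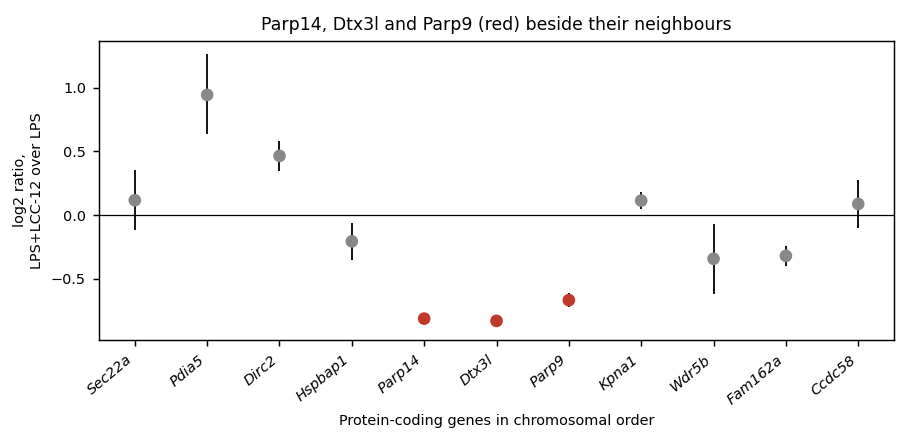
Log2 ratio of LPS+LCC-12 over LPS for protein-coding genes with 50 or more counts around Parp14, Dtx3l and Parp9 (red), in chromosomal order, with 95% counting intervals. The red genes lie between -0.83 and -0.67, and the other 8 genes lie between -0.34 and 0.94.

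Among ADP-ribosylation genes outside the set, 14 of 20 listed were read and none was 2-fold higher or lower, with a median of 0.00 (7 above and 7 below 0). Besides Dtx3l, Zc3hav1, the catalytically inactive antiviral PARP13, had 11019 counts with LPS+LCC-12 and 16789 with LPS (log2 ratio -0.56). Adprh, which removes ADP-ribose from arginine, had a log2 ratio of -0.46. The tankyrase genes Tnks and Tnks2, which make poly-ADP-ribose, had 0.03 and -0.10, and Parg, the main enzyme that degrades it, had -0.02. Intervals lay wholly below 0 for 6 of the 14 genes and wholly above 0 for 5. Those above were Adprhl2 (log2 ratio 0.29), Aplf (0.27), Parp6 (0.24), Xrcc1 (0.17) and Hpf1 (0.16). Parp6 had 1342 counts with LPS+LCC-12 and 1171 with LPS. A list of other interferon-stimulated genes, drawn up without genes of the set, had a median log2 ratio of -1.18 over 42 genes. Of those 42 genes, 28 were at least 2-fold lower and all had ratios below 0. The 7 PARPs grouped as mono-ADP-ribosylating had a median of -0.67, with ratios from -1.03 to -0.09, and 1 of them was at least 2-fold lower. Ratios of the list ran from -3.44 to -0.02, a range that also holds Nampt, Nadk and Cd38. Lying within it therefore says little, and a shared cause was not tested.

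**Figure D4:**
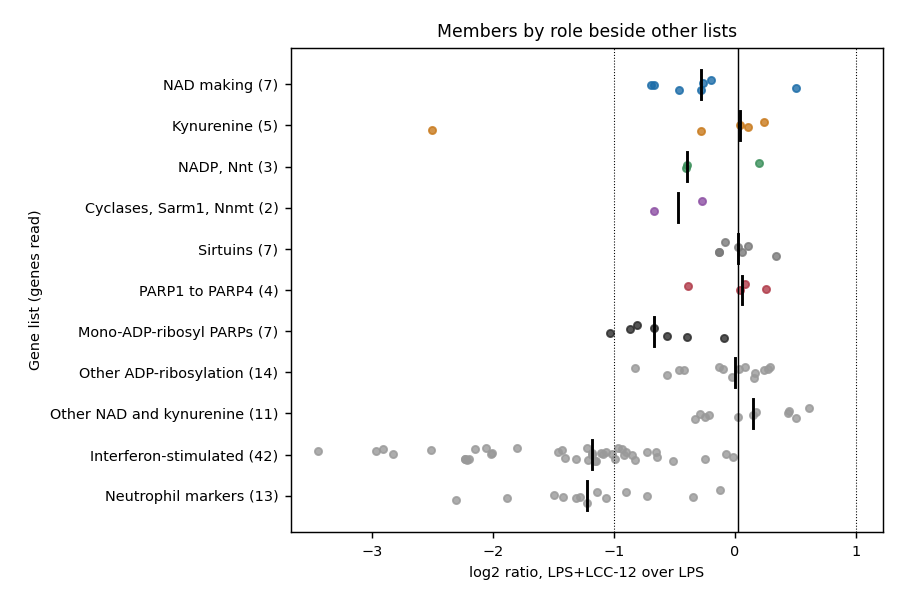
Log2 ratio of LPS+LCC-12 over LPS for each gene read, by role group (coloured) and in 4 other lists (grey), with numbers of genes in brackets; short bars are list medians, the long line is the median of all genes and dotted lines mark 2-fold. The mono-ADP-ribosylating PARPs have a median of -0.67, interferon-stimulated genes of -1.18 and neutrophil markers of -1.22, while sirtuins lie at 0.02.

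Sirtuin genes were near even, with all 7 within 2-fold and a median of 0.02 that became -0.01 under upper-quartile scaling. Sirt1, a nuclear deacetylase that restrains NF-kB, had 1255 counts in the LPS+LCC-12 library and 1275 in the LPS library (log2 ratio 0.02, -0.09 to 0.14). Sirt2, the mainly cytosolic deacetylase, had 2916 and 2793 counts (log2 ratio 0.11, 0.03 to 0.18). Sirt7, a nucleolar sirtuin, had 2754 and 3108 counts (log2 ratio -0.13, -0.20 to -0.05), and the chromatin sirtuin Sirt6 had 438 and 496 counts (log2 ratio -0.13, -0.32 to 0.06). Sirt2 and Sirt7 had the highest levels per length of the family, at 12.0 and 11.1 CPM per kb in the LPS+LCC-12 library and 11.1 and 12.1 CPM per kb in the LPS library.

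The mitochondrial sirtuins were lower in level. Sirt3, the main mitochondrial deacetylase, had 272 and 269 counts in the LPS+LCC-12 and LPS libraries (log2 ratio 0.06, -0.19 to 0.31). Sirt4 had 190 and 155 counts (log2 ratio 0.34, 0.03 to 0.66). Sirt5, which removes succinyl and malonyl groups, had 78 and 85 counts (log2 ratio -0.08, -0.54 to 0.38). For Sirt3 and Sirt5 the difference was within counting error, and Sirt4 was just beyond it. Sirt3 shares 418 exonic bases with Ric8a and 342 with Psmd13, both on the opposite strand and more abundant.

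The NAD-splitting ectoenzymes were abundant and lower in the LPS+LCC-12 library. Bst1, also called CD157, had 11684 counts (242 CPM) with LPS+LCC-12 and 19161 counts (384 CPM) with LPS, a 1.59-fold lower level (log2 ratio -0.67, -0.70 to -0.63). Cd38, the major NAD glycohydrolase of inflammatory macrophages, had 13064 and 16295 counts in the LPS+LCC-12 and LPS libraries (log2 ratio -0.27, -0.31 to -0.24). Their intervals did not overlap, and the level of Bst1 per length was 1.05 times that of Cd38 in the LPS+LCC-12 library and 1.38 times in the LPS library. Neutrophil markers, given above, were lower in the same library, and their part in the Bst1 difference was not tested. B cell markers, another possible source of both transcripts, summed to 277 CPM in the LPS+LCC-12 library and 255 CPM in the LPS library. Bst1 shares 98 exonic bases with Fbxl5, an abundant gene on the opposite strand with 46091 and 74300 counts.

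The other consumers were barely present. Sarm1, the NAD hydrolase of axon degeneration, had 3 counts in the LPS+LCC-12 library and 5 in the LPS library, and Nnmt, which methylates nicotinamide, had 1 count in each. No difference could be read at that depth.

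Of the genes of NAD salvage and of steps shared by all routes, 6 of 7 with enough counts had ratios below 0. Of all genes read, 47.6% did. The median of the 7 was -0.28, and the intervals of 2, Nmnat3 and Naprt, included 0. Genes of the kynurenine pathway are given separately below. Nampt, the rate-limiting enzyme of nicotinamide salvage, had 6494 counts (134 CPM) in the LPS+LCC-12 library and 9217 counts (185 CPM) in the LPS library. Its log2 ratio was -0.46 (-0.51 to -0.41), a 1.37-fold lower level. Nmrk1, a kinase that salvages nicotinamide riboside, had 443 and 739 counts in those libraries and was 1.62-fold lower (log2 ratio -0.69, -0.87 to -0.52). Per length, the level of Nampt was 10.7 times that of Nmrk1 in the LPS+LCC-12 library and 9.10 times in the LPS library.

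The NMNAT enzymes complete NAD by adding the adenylyl group. Nmnat1, the nuclear enzyme, was the one gene of the salvage and shared-step group above 0. It had 450 counts in the LPS+LCC-12 library and 327 in the LPS library (log2 ratio 0.51, 0.30 to 0.72). It also had the highest ratio of all 35 genes read. Nmnat3, the mitochondrial enzyme, had 193 and 228 counts (log2 ratio -0.19, -0.48 to 0.09), within counting error. Nmnat2, the enzyme of neurons, had 5 and 4 counts.

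Of the genes of the nicotinic acid and quinolinate routes, Naprt and Qprt were low. In level per length they stood at percentiles 7.09 and 7.26 of all genes read, and Nadsyn1 at 42.3. Nadsyn1, the NAD synthetase that amidates the nicotinic acid form, had 482 counts with LPS+LCC-12 and 604 with LPS (log2 ratio -0.28, -0.46 to -0.10). Naprt, which starts from nicotinic acid, had 46 and 57 counts (log2 ratio -0.26, -0.86 to 0.32), and it shares 277 exonic bases with Eef1d on the same strand. Qprt, which takes in quinolinate from the kynurenine pathway, had 45 and 74 counts (log2 ratio -0.67, -1.24 to -0.12). The difference of Qprt was beyond counting error, and that of Naprt was within it. Both genes met the minimum of 50 counts only in the LPS library, so by that rule both had fewer counts with LPS+LCC-12.

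In the kynurenine pathway Ido1 was lower in the LPS+LCC-12 library, while the later enzymes did not differ beyond counting error. Ido1, which opens the tryptophan ring and is known as an interferon-gamma target, had 9 counts in the LPS+LCC-12 library and 55 in the LPS library. It was 5.66-fold lower (log2 ratio -2.50), with an interval of -3.77 to -1.54 that lay wholly past 2-fold. Ido1 met the minimum of 50 counts only in the LPS library. A gene kept that way has fewer counts in the other library by that rule, so the direction for Ido1 is not a result by itself. Even in the LPS library its level was only 1.10 CPM. Ido2, its neighbour in the genome and a weaker enzyme, had 18 and 5 counts in those libraries, a log2 ratio of 1.79 with an interval of 0.41 to 3.68, too few for the count minimum.

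Afmid, the formamidase of the next step, had 54 counts in each library (log2 ratio 0.05, -0.53 to 0.62). However, 44.2% of its exonic bases are shared with the overlapping gene Gm20708, which had 0 counts. Kmo, the mitochondrial hydroxylase, had 116 counts with LPS+LCC-12 and 101 with LPS (log2 ratio 0.24, -0.15 to 0.65). Kynu, the kynureninase, had 87 and 109 counts (log2 ratio -0.28, -0.70 to 0.14). Haao, which forms the precursor of quinolinate, had 303 and 290 counts (log2 ratio 0.11, -0.13 to 0.35). For all 4 of these genes the difference was within counting error. Tdo2, the tryptophan dioxygenase of liver, had 11 and 16 counts, and Acmsd, which diverts the pathway from NAD, had 0 in both libraries.

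NADP is made from NAD by a cytosolic and a mitochondrial kinase, and their genes had nearly the same ratio. Nadk, the cytosolic kinase, had the highest level per length of the set in both libraries, 150 CPM per kb with LPS+LCC-12 and 198 CPM per kb with LPS. It had 27217 counts in the LPS+LCC-12 library against 37093 in the LPS library (log2 ratio -0.40, -0.42 to -0.38). Nadk2, the mitochondrial kinase, had 406 and 550 counts (log2 ratio -0.39, -0.58 to -0.20). Nnt, the mitochondrial transhydrogenase that makes NADPH at the expense of NADH, had 98 and 88 counts (log2 ratio 0.20, -0.23 to 0.63), within counting error. The reference genome is of C57BL/6J, a strain known for a deletion within Nnt. The annotation also holds another gene ID with that symbol on the same strand, which had 0 counts in both libraries and shares 3339 bases, 47.4% of the exonic bases of the Nnt entry used here. Whether either lowered the counts of Nnt was not tested.

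**Figure D5:**
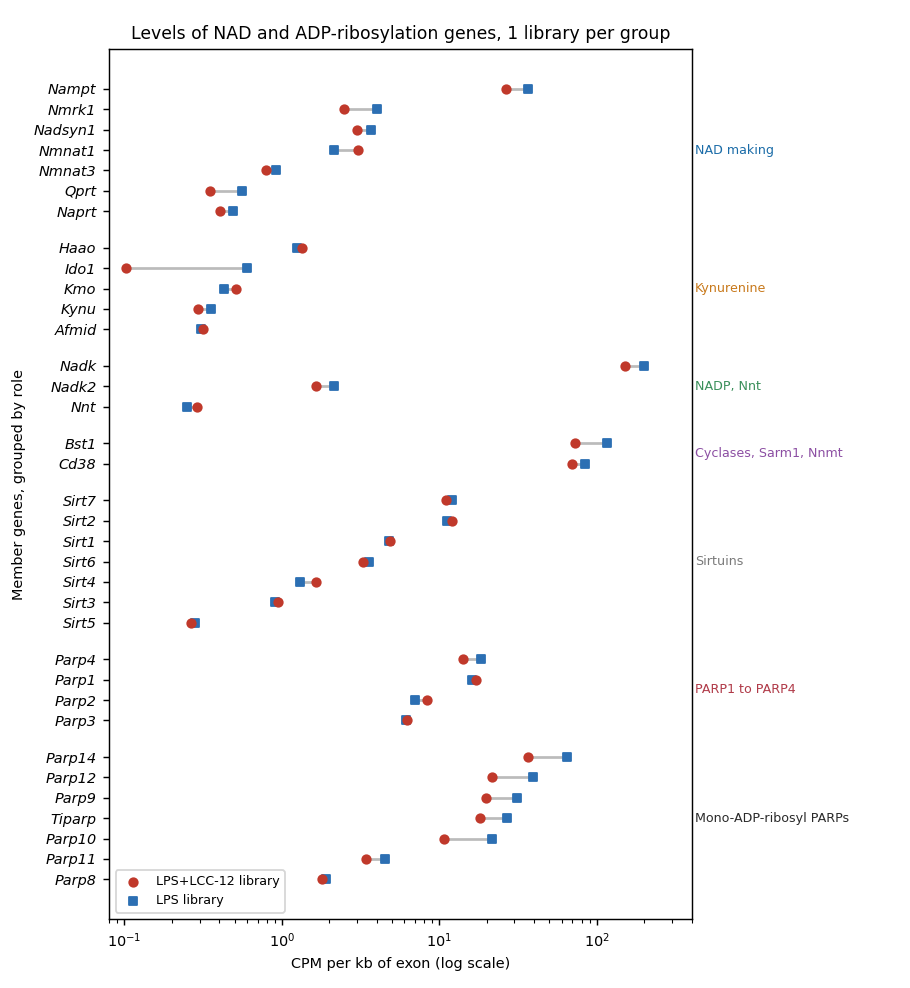
Level in CPM per kb of exon (log axis) of the 35 genes with 50 or more counts, in the LPS+LCC-12 library (red circles) and the LPS library (blue squares), grouped by role. Levels span from Nadk at 150 and 198 to genes below 1 such as Ido1 at 0.102 and 0.603.

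Other genes of NAD, nicotinamide and kynurenine handling were spread to both sides of 0. Of 21 listed, 11 were read, none was 2-fold higher or lower, and their median log2 ratio was 0.15, with 7 above 0. Slc25a51, the mitochondrial NAD carrier, had 2969 counts in the LPS+LCC-12 library and 2258 in the LPS library (log2 ratio 0.44, 0.36 to 0.52). Slc3a2, the shared chain of amino acid carriers, was the most counted, with 6941 and 6355 counts (log2 ratio 0.17). Among genes of the aryl hydrocarbon receptor, which kynurenine activates, 4 of 9 were read and all had ratios below 0, with a median of -0.30. Of these Nqo1, a quinone reductase also known as an NRF2 target, had 35 counts with LPS+LCC-12 and 143 with LPS, 3.92-fold lower (log2 ratio -1.97). Ahr had 507 and 657 counts (log2 ratio -0.33), and Cyp1a1, the classical target, had 0 in both libraries.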

How the data were processed

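Small peritoneal macrophages from LPS-treated mice, with or without LCC-12, were sequenced as 1 library per group. The values deposited by the authors are raw counts per gene. Total RNA (10 ng) was fragmented, per the labels' protocols, and ribosomal cDNA was then depleted in a stranded kit and 12 PCR cycles were run. Per the submitters' processing notes, STAR and mm10 were used. How reads were counted, with which strand setting and annotation, is not given in the sources used here.

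Symbols, positions and exon lengths came from GENCODE M21 (GRCm38), which matched 55394 of 55487 IDs. From the counts, edgeR 4.0.16 TMM sizes (R 4.3.3) gave CPM and log2 ratios, with 0.5 counts added in proportion to library size. Intervals are exact 95% binomial (Clopper-Pearson, SciPy 1.17.1). They were run on simulated Poisson counts without PCR copies or variation between mice, which checks the calculation only. PCR copies are not independent molecules, so intervals cover counting error only. Genes were read where either library had at least 50 counts, and all set genes were named. Other lists were named by the genes past 2-fold or the most counted, plus genes picked after their values were seen (among them Adprh, Tnks, Tnks2, Parg, Slc25a51, Ahr, Tdo2, Acmsd and Cyp1a1). The genes, lists and rules were chosen with earlier results of these data known. Alternatives were 4 other scalings, including DESeq2 1.42.0 median of ratios, and other count minimums, added counts, size limits and means.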

Additional observations from a re-analysis of the deposited data

How the results depend on the processing

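The median log2 ratio of the set stayed below 0 under every alternative run, from -0.29 to -0.19. The number of genes at least 2-fold lower was 1 instead of 2 under scaling by total counts, under totals that leave out mitochondrial and the 100 most abundant genes, with a 3-fold limit and when the whole interval had to pass 2-fold, where in each case Ido1 remained. It was also 1 with a minimum of 200 counts, where Parp10 remained, and 8 with a 1.5-fold limit. The number at least 2-fold higher was 1 instead of 0, namely Ido2, with a minimum of 10 counts or none. Of 175 ratios of single genes recomputed under other scalings and 5 added counts, 17 left their counting interval and no gene past 2-fold changed sign. Sirt1 was the 1 gene whose sign changed, under upper-quartile scaling. The scalings moved all ratios by -0.03 to 0.06. No paired analysis was possible because each group was 1 library. For the same reason no library could be left out, and variation between mice is not measured.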

Other observations

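Transcripts that overlap the set's genes gave a few values outside the comparisons, picked after they were seen. Gm49730, an unclassified gene within Parp14 on the same strand, had 231 counts in the LPS+LCC-12 library and 593 in the LPS library. Parp14 itself had 16564 and 29996 counts. Gm16573, antisense to Parp4, had 19 and 29 counts, and the pseudogene 4931440P22Rik opposite Tiparp had 186 and 198. Whether reads were shared between these genes was not tested.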
